A study of Mus musculus with 6 samples.

Results

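The 10 genes described here are products of the neutrophil lineage, chosen by symbol from the 34099 gene rows of the series: S100a8, S100a9, Retnlg, Ngp, Camp, Ltf, Mmp8, Mmp9, Csf3r and G0s2. Each symbol matched a single row, and all 10 had UMIs. A UMI (unique molecular identifier) marks a captured RNA, so PCR copies of it count as a single molecule. The tissue was liver tumor of wild type male C57BL/6J mice, 8 weeks old when obtained, in which H22, a murine hepatocellular carcinoma line, had been implanted in the liver. The 3 stress mice had been put through 21 days of chronic unpredictable mild stress, a schedule of changing mild stressors, and the 3 control mice carried the same tumor cells without stressors. Each mouse gave a single 10x Genomics library. UMIs of each gene were summed per mouse over the cell types of the authors' annotation, and 4 myeloid classes were compared: inflammatory myeloid cells (6307 cells), monocytes (6260), M-MDSCs (the label for monocytic myeloid-derived suppressor cells, 350) and neutrophils (175), of 58794 annotated cells. Values are UMIs of the gene per 1000000 UMIs of the class in that mouse (CPM), and mice are listed as control 1, 2 and 3 and stress 1, 2 and 3.

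Neutrophils are made in the bone marrow, and the contents of their granules are transcribed in sequence as the cell matures. Primary granule enzymes come first, secondary granule proteins such as Ngp, Camp and Ltf come at the myelocyte stage, gelatinase granule proteins such as Mmp9 later, and surface receptors such as Csf3r and Cxcr2 mark the mature cell. S100a8 and S100a9 pair into calprotectin, a calcium- and metal-binding complex that makes up much of the neutrophil's cytosolic protein and acts on the receptors Tlr4 and Ager when released. In tumors, neutrophils and neutrophil-like suppressor cells carry these transcripts, and C/EBP family factors, Cebpe among them, drive the secondary granule genes.

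S100a8 (chr3:90668978-90670035, plus strand) and S100a9 (chr3:90692632-90695721, minus strand) lie 22596 bases apart. Camp (chr9:109847379-109849617, minus strand), Ngp (chr9:110419747-110423012, plus strand) and Ltf (chr9:111019271-111042767, plus strand) follow each other on chromosome 9, with 570129 and 596258 bases between neighbours (GENCODE M21, GRCm38). The promoters of these 5 genes are shown because the S100 pair held the most UMIs of the 10 genes and the secondary granule genes had the widest ratios between neutrophils and inflammatory myeloid cells. Each is the RefSeq window (GRCm38.p6) from 250 bases before to 50 bases after the annotated start, written 5′ to 3′ on the strand of the gene. Capitals mark matches to TTGCNNAA on either strand, a core of the C/EBP motif. For S100a8 the window is chr3:90668821-90669120 (plus), for S100a9 chr3:90695672-90695971 (minus), for Camp chr9:109849407-109849706 (minus), for Ngp chr9:110419558-110419857 (plus) and for Ltf chr9:111019042-111019341 (plus).
S100a8: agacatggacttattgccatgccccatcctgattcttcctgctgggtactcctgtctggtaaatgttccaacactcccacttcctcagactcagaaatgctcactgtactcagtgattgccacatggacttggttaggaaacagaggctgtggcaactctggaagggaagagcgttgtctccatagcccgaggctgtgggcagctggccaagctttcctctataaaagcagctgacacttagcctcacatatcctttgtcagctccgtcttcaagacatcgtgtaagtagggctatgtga
S100a9: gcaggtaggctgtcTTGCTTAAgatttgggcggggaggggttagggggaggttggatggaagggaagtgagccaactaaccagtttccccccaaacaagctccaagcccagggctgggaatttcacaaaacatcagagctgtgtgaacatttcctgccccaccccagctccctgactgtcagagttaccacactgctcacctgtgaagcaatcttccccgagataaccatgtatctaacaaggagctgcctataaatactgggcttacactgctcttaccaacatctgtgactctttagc
Camp: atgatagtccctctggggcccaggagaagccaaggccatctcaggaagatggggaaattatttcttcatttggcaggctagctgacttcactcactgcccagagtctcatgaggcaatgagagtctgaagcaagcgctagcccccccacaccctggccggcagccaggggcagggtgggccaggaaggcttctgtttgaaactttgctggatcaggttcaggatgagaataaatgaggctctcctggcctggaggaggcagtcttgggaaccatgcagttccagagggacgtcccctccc
Ngp: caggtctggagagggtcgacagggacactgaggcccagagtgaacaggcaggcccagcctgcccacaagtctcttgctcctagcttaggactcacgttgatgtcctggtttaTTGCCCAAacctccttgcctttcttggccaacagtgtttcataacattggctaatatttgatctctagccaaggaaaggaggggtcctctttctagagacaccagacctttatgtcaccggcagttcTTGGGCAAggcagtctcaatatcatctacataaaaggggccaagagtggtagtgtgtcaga
Ltf: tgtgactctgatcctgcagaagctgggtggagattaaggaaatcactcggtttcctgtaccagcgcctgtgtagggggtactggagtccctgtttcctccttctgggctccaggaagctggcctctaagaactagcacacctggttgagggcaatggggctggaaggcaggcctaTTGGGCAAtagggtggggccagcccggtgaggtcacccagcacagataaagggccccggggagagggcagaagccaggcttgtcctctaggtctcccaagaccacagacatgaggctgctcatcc
Of the 10 genes, 9 had a window in the RefSeq table, and Mmp9 had none. The C/EBP core was found in 5 of the 9 (S100a9, Retnlg, Ngp, Ltf and Mmp8) and in 10.8% of 32851 promoter windows of the same length. Ngp held 2 matches, at -138 and -11 from its start, and Camp held none. The PU.1 core GAGGAA was found in 4 of the 9 (S100a8, Ltf, Mmp8 and Csf3r) and in 28.3% of all windows, and TATAAA in 3 of the 9 (S100a8, S100a9 and Mmp8) and in 13.6%. These matches describe letters in the windows, and no binding was measured.

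Depth differed between the classes and has to be read with every value. The median was 1547 UMIs per cell in inflammatory myeloid cells, 5394 in neutrophils, 5291 in monocytes and 27447.5 in M-MDSCs, which was close to the 27716 of tumor cells. Neutrophils were not tested between groups, because a mouse had fewer than 10 of them, with 4, 34 and 17 cells in control animals and 14, 49 and 57 in stress animals, and ranges and medians for neutrophils below leave out control mouse 1, while pooled values keep it. The control libraries were counted with Cell Ranger 9.0.0 and the stress libraries with 7.1.0, so in every comparison of the groups the counting version and the stress cannot be told apart. Libraries shared between 13 and 40 cell barcodes per pair. The classes were built by the authors from the same transcripts, so differences between classes are given as descriptions without a test. In these sums, fewer cells that carry a transcript and less transcript per cell cannot be told apart.

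S100a8 and S100a9, the subunits of calprotectin, were highest in neutrophils, lower in inflammatory myeloid cells and lowest in M-MDSCs and monocytes. S100a8 had 90513, 52489, 63249.9, 72258 and 79818 CPM in neutrophils of control mice 2 and 3 and stress mice 1, 2 and 3. In inflammatory myeloid cells it had 4912, 8554 and 7497 CPM in the controls and 4671, 8689.6 and 10653 in stress mice. The lowest neutrophil value lay above the highest inflammatory myeloid value, and within a mouse the neutrophil level was 8.32 times as high at the median of the 5 mice. S100a9 had 114911, 62520.5, 108222, 111091 and 108148 CPM in the same neutrophils. Its inflammatory myeloid values were 8997, 15321 and 12724 CPM in the controls and 10695, 16704 and 21254 under stress, 6.65 times below neutrophils at the median. The pair took up a pooled 17.7% of all UMIs of neutrophils and 2.41% of those of inflammatory myeloid cells. Cells of the inflammatory myeloid class were uneven, with a median of 1.11% of a cell's UMIs from the pair, 7.52% at the 90th percentile and neither transcript in 11.8% of cells, against a median of 21.4% and no cell without either among neutrophils.

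Retnlg, a secreted resistin-like protein of neutrophils, followed the same order. It had a median of 12718 CPM in neutrophils (6308 to 18287), 2258 in inflammatory myeloid cells (1039 to 3822), 99.4 in M-MDSCs and 13.1 in monocytes. G0s2, an inhibitor of the lipase Pnpla2 that is abundant in mature neutrophils, did not separate the first 2 classes. Its median was 6996 CPM in inflammatory myeloid cells (3091 to 10684) and 5767 in neutrophils (3468 to 6675), and these ranges overlapped. Csf3r, the receptor for G-CSF, was the only gene of the 10 whose inflammatory myeloid range lay above that of neutrophils. It had 224, 628 and 448 CPM in inflammatory myeloid cells of control mice, against 281, 668 and 753 in stress mice. In neutrophils it had 147, 131, 55.8, 151 and 197 CPM in the 5 mice, so that the inflammatory myeloid level was 3.41 to 5.03 times as high within a mouse. After each cell was thinned to 1000 UMIs, 42.3% of inflammatory myeloid cells and 18.3% of neutrophils had a UMI of Csf3r, and without thinning 54.6% and 51.4%.

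The secondary granule genes set the classes furthest apart. Ngp, a cathelicidin-related granule protein, had 15658, 9485, 17124, 19471 and 14845 CPM in neutrophils of the 5 mice. In inflammatory myeloid cells it had 13.7, 32.0 and 7.98 CPM in control animals and 17.4, 180 and 107 in stress animals. Camp, the cathelicidin antimicrobial peptide, had a median of 22854 CPM in neutrophils (10174 to 31568) and of 10.7 in inflammatory myeloid cells (0.319 to 434). Ltf, the iron-binding lactoferrin, had a median of 3449.7 CPM in neutrophils (1324 to 5263) and of 44.8 in inflammatory myeloid cells (25.2 to 88.8). Within a mouse the neutrophil level was 108 to 1188 times that of inflammatory myeloid cells for Ngp and 52.5 to 102 times for Ltf. Although neutrophils were 175 of 58794 cells, they held 92.0% of all Ngp UMIs, 91.8% of Camp UMIs and 78.0% of Ltf UMIs, and only 34.0% of S100a9, 5.30% of G0s2 and 1.66% of Csf3r UMIs.

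The metalloproteinases of the granules differed from each other. Mmp9, gelatinase B, had a median of 722 CPM in neutrophils (400.0 to 1020), 184 in inflammatory myeloid cells (98.8 to 301), 13.6 in M-MDSCs and 3.05 in monocytes. Mmp8, neutrophil collagenase, was also highest in neutrophils, with a median of 1181 CPM (623 to 1590). Monocytes (20.6 to 214 CPM) overlapped with inflammatory myeloid cells (59.0 to 254 CPM) for Mmp8. They also overlapped for Ngp and Camp, which were low in both, and not for the other genes. Pooled over the mice, the monocyte level was 44.9% of the inflammatory myeloid level for Mmp8, against 0.518% for Retnlg, 0.813% for S100a9, 1.86% for S100a8 and 2.36% for Mmp9. Monocytes held 40.3% of all Mmp8 UMIs. Tumor cells held 36.4% of Mmp9 UMIs at a low level of 0.937 to 5.50 CPM, where S100a8 had 1.39 to 15.6.

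**Figure D1:**
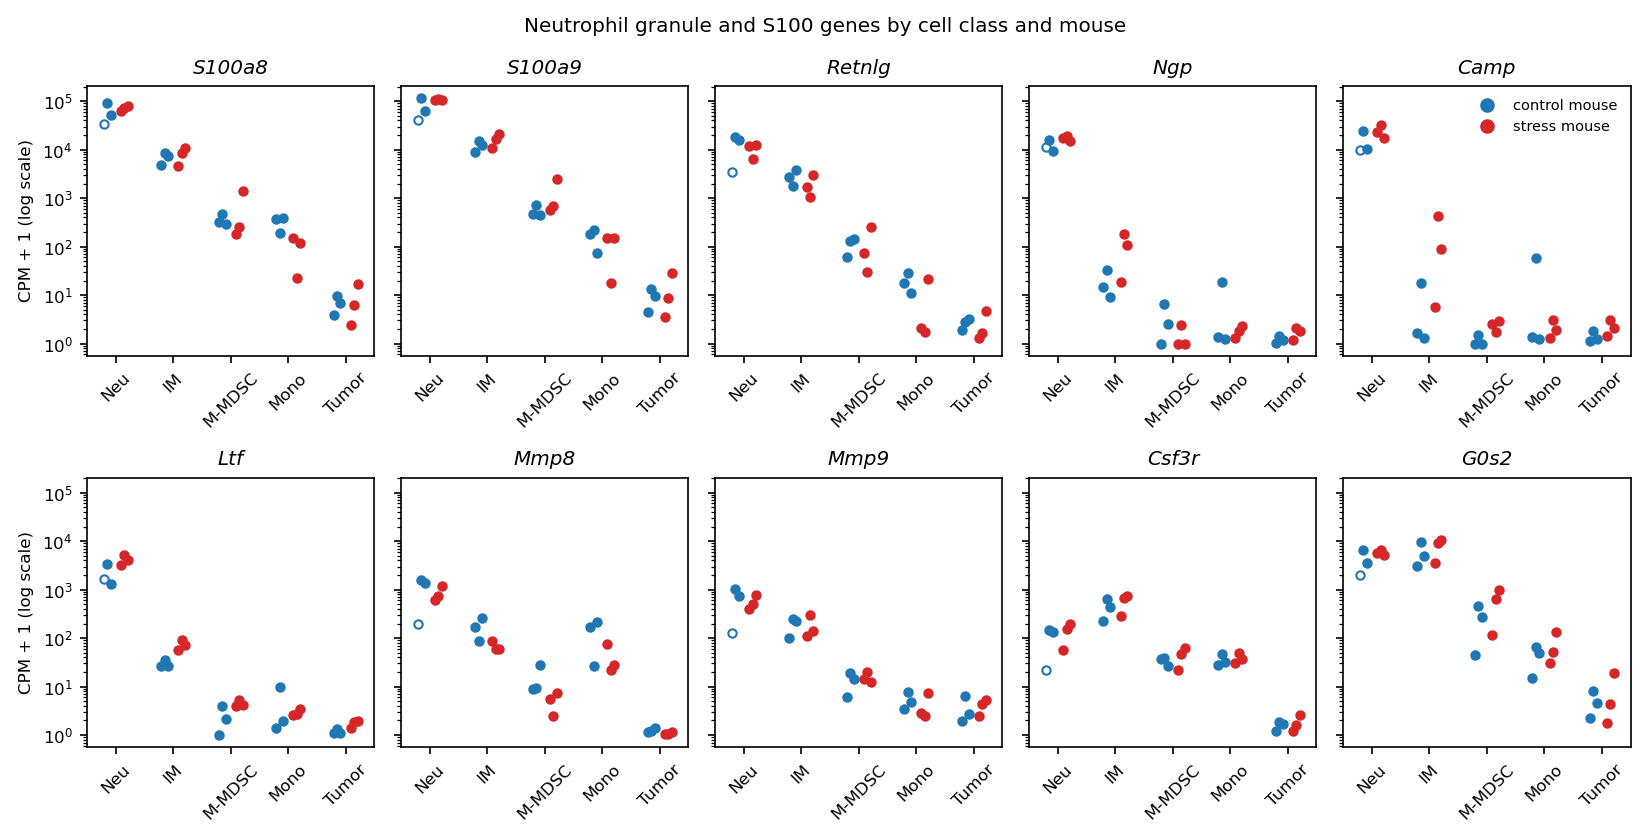
Level of each gene (CPM + 1, log scale) in neutrophils (Neu), inflammatory myeloid cells (IM), M-MDSCs, monocytes (Mono) and tumor cells; each point is a mouse, blue for control and red for stress, and the open point is control mouse 1, which had 4 neutrophils. Ngp, Camp and Ltf fall steeply from neutrophils to inflammatory myeloid cells, Csf3r is higher in inflammatory myeloid cells, and Mmp8 overlaps between inflammatory myeloid cells and monocytes.

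By pooled level, other granule genes and mature neutrophil genes divided the classes in a like manner, and the remaining lists of the pathway did not. Of 5 genes of the primary granule stage, 5 had their highest pooled level in neutrophils, but their levels varied between mice. Elane, neutrophil elastase, ranged from 0 to 791 CPM in neutrophils (median 134) and from 0 to 505 in inflammatory myeloid cells (median 0). The ranges of Mpo, Prtn3, Ctsg and Ms4a3 also overlapped between these classes. Of 12 further secondary and gelatinase granule genes, 12 had their highest pooled level in neutrophils, for example Lcn2, a siderophore-binding protein (6881 to 10929 CPM, against 350.0 to 1141 in inflammatory myeloid cells). Of 19 mature neutrophil genes, 17 had their highest pooled level in inflammatory myeloid cells, among them Cxcl2, a neutrophil-attracting chemokine (22024 to 46056 CPM, against 2198 to 6411 in neutrophils), and Clec4d (567 to 1630 against 224 to 463). Cxcl2, Clec4d, Clec4e, Il1b, Acod1, Trem1 and Ptgs2 of this list also served here as markers of inflammatory myeloid cells. For these genes the count is no separate support. Of 12 other S100 genes, 6 had their highest pooled level in M-MDSCs, 4 in neutrophils, 2 in monocytes and 0 in inflammatory myeloid cells. These counts cover the 4 classes only. S100a10, S100a1 and S100a16 had 1869, 52.2 and 15.5 CPM in M-MDSCs and more, 2147, 61.2 and 17.4, in tumor cells (pooled). Of 17 genes of the G-CSF axis and of granulopoiesis, 7 were highest in inflammatory myeloid cells, 6 in monocytes, 3 in neutrophils and 1 in M-MDSCs, and the 6 receptors and inhibitors were spread over the 4 classes. Cxcr2, the receptor that draws neutrophils to such chemokines, was close in both (161 and 169 CPM, pooled), and Ly6g, a surface marker of mouse neutrophils, had 18.6 CPM in inflammatory myeloid cells and 425 in neutrophils. Cebpe, the factor of the secondary granule stage, had 4.89 and 123 CPM. The monocyte markers Csf1r, Adgre1 and C1qa were at 14.9, 18.0 and 7.03 CPM in inflammatory myeloid cells and at 184, 65.2 and 713 in monocytes. Cd14, a receptor for lipopolysaccharide often used to mark monocytes, was not lower in inflammatory myeloid cells (median 2726 CPM, 1439 to 3948) than in monocytes (1467, 1083 to 1820). Neutrophils had a Cd14 level like that of monocytes (median 1490 CPM, 1084 to 2344), so Cd14 did not set these classes apart. In the class labelled inflammatory myeloid cells Csf1r, Adgre1 and C1qa were thus low and Cd14 high.

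Within the neutrophil class, cells with many and with few secondary granule UMIs had different levels of Csf3r and S100a8. A total of 142 of the 175 cells (81.1%) had at least 5 UMIs of Ngp, Camp and Ltf together, a limit chosen after the data were seen. Those 142 had 109 CPM of Csf3r and 83016 of S100a8, and the remaining 33 had 353 CPM of Csf3r and 28769.9 of S100a8. The limit counts raw UMIs, and the median depth was 5579.5 UMIs in the 142 cells and 3838 in the 33, which came from 5 mice. The part of depth and of mouse in these differences was not tested. Retnlg was closer, with 10896 and 13729 CPM, as was G0s2, with 5760 and 4521 CPM. Against the pooled inflammatory myeloid levels, the 33 cells lay between both kinds in Csf3r (559 in inflammatory myeloid cells) and S100a8 (8326), but not in Retnlg (2740) or G0s2 (7660).

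The class labelled M-MDSCs held S100a8, S100a9 and the mature neutrophil transcripts at a low and similar fraction of the inflammatory myeloid level. Pooled over the mice, the fraction was 6.28% for S100a8, 5.99% for S100a9, 4.77% for Retnlg, 5.31% for Ltf, 9.43% for Mmp8, 7.95% for Mmp9, 6.92% for Csf3r and 6.41% for G0s2. Ngp (3.35%, 17 UMIs) and Camp (1.06%, 6 UMIs) were lower. In single mice the ratio varied more, for S100a8 from 0.0286 to 0.130 with a median of 0.0468. For 12 other genes of inflammatory myeloid cells, picked after the data were seen, it was between 5.33% and 8.90%, with 6.31% for Cxcl2 and 6.53% for Il1b. Some genes outside those 12 lay above that range. Csf1 had 45.8 CPM in M-MDSCs against 316 in inflammatory myeloid cells, Cebpb 665 against 5868 and Mxd1 137 against 1312. The label was not borne out by its markers, as Arg1 (4.93 CPM), Nos2 (4.58) and Ly6c2 (4.11), which define suppressive monocytic cells, were lower than in monocytes (1219, 130 and 239 CPM). The tumor markers Krt18 and Epcam had 354 and 118 CPM in the class, against 417 and 148 in tumor cells and 69.0 and 24.5 in monocytes. All 6 tumor markers were detected, and their summed level was 547 to 685 CPM in control and 662 to 869 in stress mice, near the 696 to 974 of tumor cells. At 1000 UMIs per cell, 22.2% of M-MDSCs had a UMI of S100a8 (61.4% without thinning), and 0 of 342 had one of Camp, which at that depth allows a share of up to 0.877% (counting error only). Without thinning 1.43% of M-MDSCs had a UMI of Camp. The part of tumor transcripts in the values of this class was not tested.

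**Figure D2:**
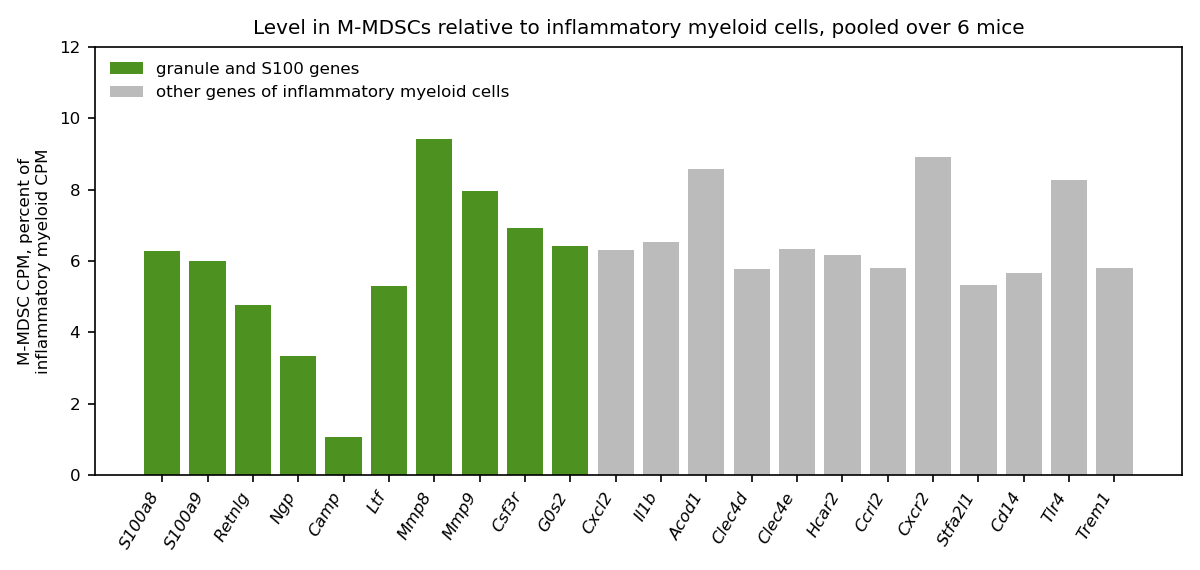
Level in M-MDSCs as a percent of the level in inflammatory myeloid cells, both pooled over 6 mice, for the 10 granule and S100 genes (green) and 12 other genes of inflammatory myeloid cells (grey). The bars lie between 4.77% (Retnlg) and 9.43% (Mmp8), apart from Ngp at 3.35% and Camp at 1.06%.

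Cells that should lack these transcripts were used as a background, and whether their UMIs came from free RNA was not tested. Stress mouse 3 alone held 552 of the 787 S100a9 UMIs of NK/T cells. In NK/T cells (median 4403 UMIs) thinned to 1000 UMIs, 1.13% had a UMI of S100a8, 1.78% of S100a9, 0.0405% of Ngp, 0.0810% of Camp and 0 of 2468 one of Mmp8, which allows up to 0.122% at that depth. Inflammatory myeloid cells had 77.8%, 80.0%, 0.827%, 0.376% and 9.58%, after 984 of 6307 cells with fewer UMIs were left out (734 of control and 250 of stress mice). Without thinning these shares were 80.8%, 81.5%, 1.54%, 0.713% and 13.05%, against 4.90%, 7.07%, 0.361%, 0.884% and 0.281% in NK/T cells. Monocytes had 5.83% for S100a8, 2.85% for S100a9 and 5.06% for Mmp8 (16.4%, 9.11% and 13.6% without thinning), above NK/T cells. B cells and endothelial cells also lay below monocytes for S100a8 and Mmp8. For S100a9 they were close to monocytes, with 2.67% of B cells and 2.10% of endothelial cells (9.85% and 6.39% without thinning). S100a9 of monocytes was thus not set apart from all background classes. For Ngp and Camp they had 5 and 11 of 6171 cells, against 1 and 2 of 2468 NK/T cells, so these transcripts were near the background. Among endothelial cells (ECs), cluster 24 (229 cells) stood apart with 1501 CPM of S100a8, 121 of Ngp and 108 of Csf3r, whereas the other EC clusters had 5.31 to 31.5 CPM of S100a8.

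The balance of S100a8 and S100a9 was compared between the classes and the groups. Inflammatory myeloid cells had S100a8 to S100a9 UMI ratios of 0.546, 0.558 and 0.589 in the controls, compared with 0.437, 0.520 and 0.501 under stress. Every stress mouse lay below every control mouse (0.564 ± 0.0223 against 0.486 ± 0.0438, SD, n = 3 each; exact permutation test, two-sided, p = 0.1, the smallest that 3 against 3 mice can give). In neutrophils, which were not tested, the ratio was 0.813 (from 4 cells), 0.788 and 0.840 for controls, compared with 0.584, 0.650 and 0.738 under stress. In M-MDSCs it was 0.704, 0.654 and 0.626 against 0.323, 0.362 and 0.561. The groups did not overlap in any of these 3 classes, nor in dendritic cells (0.900 and 1.04 against 0.572 and 0.649, in the 2 mice of each group with at least 10 UMIs of both genes), and in tumor cells, ECs and NK/T cells they did. The classes of a mouse share a library, so they are not separate comparisons of the groups. With neutrophils added to the inflammatory myeloid cells the difference shrank from -0.0784 to -0.0427 (p = 0.3, exact permutation test), and the groups overlapped. Monocytes varied most, with ratios of 2.06, 0.867 and 5.39 in control and 0.969, 1.26 and 0.766 in stress mice, so that S100a8 exceeded S100a9 in 3 of 6 mice. By cluster the pooled ratio was 0.824 in cluster 11, 1.41 in cluster 12 and 1.35 in cluster 13. Of 1029 monocytes with an S100a8 UMI, 795 (77.3%) had none of S100a9, and at 1000 UMIs per cell it was 78.9%, against 8.12% of such inflammatory myeloid cells. At that depth 2.85% of all monocytes and 80.0% of all inflammatory myeloid cells had an S100a9 UMI. The shares thus depend on the level of S100a9 and do not by themselves show S100a8 without its partner.

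**Figure D3:**
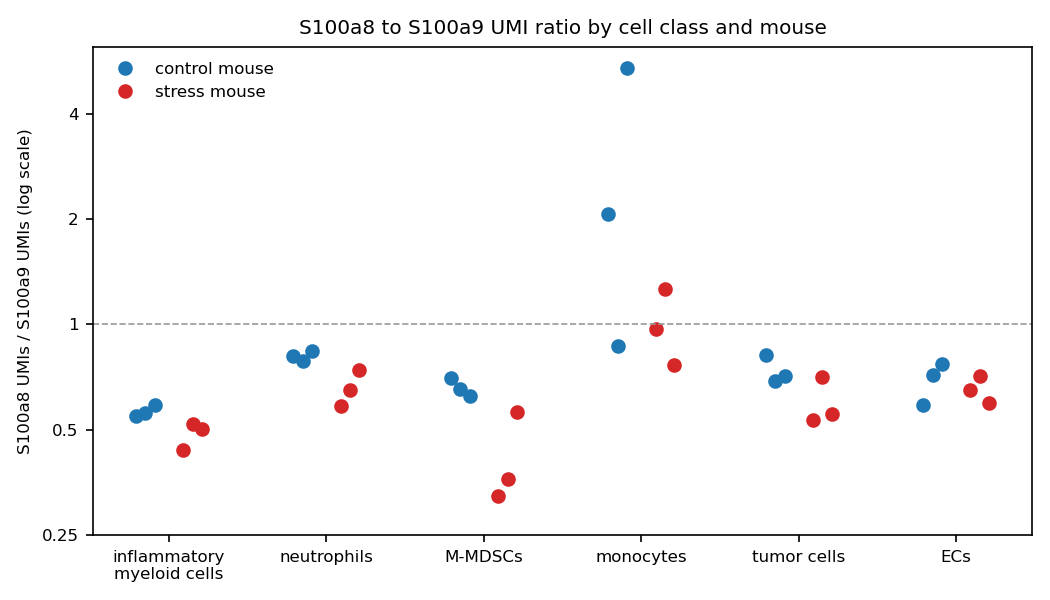
Ratio of S100a8 to S100a9 UMIs (log scale) in 6 cell classes, with a point for each mouse (blue control, red stress) and a dashed line at equal UMIs. The stress mice lie below the control mice in inflammatory myeloid cells, neutrophils and M-MDSCs, and monocytes reach 5.39.

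Whether stress changed these genes in inflammatory myeloid cells was asked with edgeR's quasi-likelihood test on the summed UMIs. Of the 10 genes 0 passed an adjusted p of 0.05, as did 0 of all 9219 genes tested (0.0%), and DESeq2 called 5 genes, none of them among the 10. At an unadjusted p under 0.05 were 4 of the 10 (Ltf, Ngp, Camp and Mmp8) and 365 of all genes (3.96%). Ltf had 25.5, 33.8 and 25.2 CPM in control and 55.7, 88.8 and 70.3 in stress mice. The groups did not overlap, as for 3.12% of all genes in this direction, and the log2 fold change was 1.49 (SE 0.39, adjusted p = 0.994 by edgeR). Ngp and Camp had log2 fold changes of 2.66 (SE 0.77, adjusted p = 0.994) and 4.87 (SE 1.43, adjusted p = 0.994), and passed with no filter on low counts (adjusted p = 4.82e-05 and 1.14e-14, edgeR). That setting called 80 of the 20510 genes it tested. Camp also passed with the replicate block (5.33, adjusted p = 0.0118, edgeR), which called 9 of all genes. The groups of both Ngp and Camp overlapped, with Camp at 0.654, 16.7 and 0.319 CPM in control and 4.64, 434 and 89.2 in stress mice. Mmp8 had 173, 87.5 and 254 CPM in control and 85.9, 59.2 and 59.0 in stress mice. It did not overlap, as for 4.37% of all genes in this direction, with a log2 fold change of -1.22 (SE 0.46, adjusted p = 0.994). The other 6 genes had log2 fold changes between -0.27 (Retnlg) and 0.58 (S100a9), each within 1 SE of 0. The median over the 10 was 0.56, against -0.01 over all genes tested, but it was -0.022 without stress mouse 3, 0.13 without control mouse 1 and 0.11 over the 9 that could be tested without cells of very high UMIs.

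**Figure D4:**
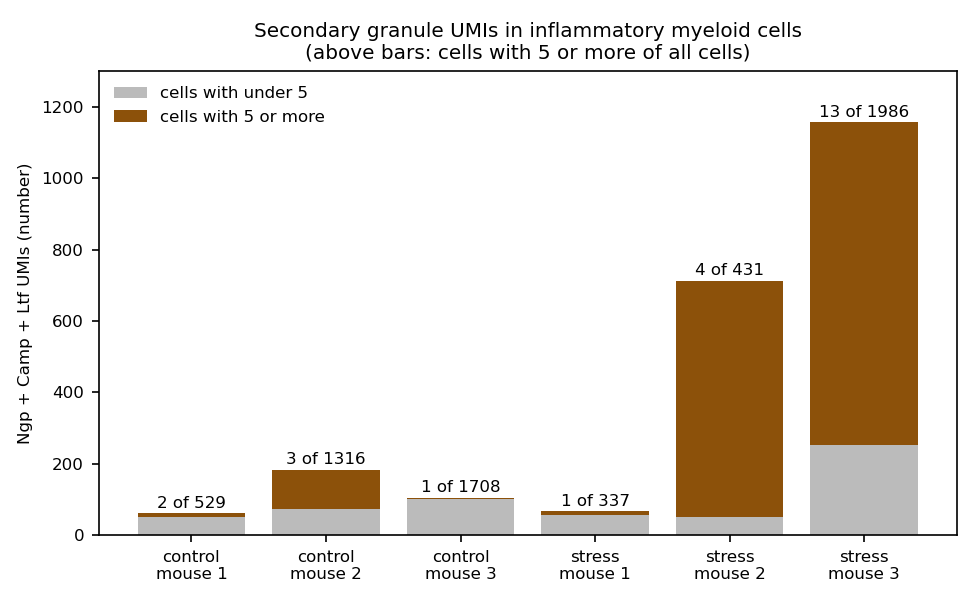
UMIs of Ngp, Camp and Ltf together in inflammatory myeloid cells of each mouse, split into cells with at least 5 of them (brown) and the rest (grey); numbers above the bars are such cells of all cells. In stress mouse 2, 4 cells hold 662 of the 713 UMIs, and in stress mouse 3, 13 cells hold 904 of 1157.

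Ngp and Camp of this class sat in few cells, and Ltf was spread more widely. Only 24 of 6307 inflammatory myeloid cells (0.381%) had at least 5 UMIs of Ngp, Camp and Ltf together, and they held 1700 of the 2286 such UMIs (74.4%). In stress mouse 3 Ltf was found in 151 cells against 29 for Camp. Stress mice 2 and 3 had 4 of 431 and 13 of 1986 such cells, and the other mice between 1 and 3. In stress mouse 2 a single cell held 258 of the 440 Camp UMIs. The 4 such cells of that mouse had a median of 19417.5 UMIs, against 1663 in its whole class and 2040.5 to 3407 in such cells of the other mice. The 24 cells had 17590.0 CPM of S100a8, 2555 of Ngp, 681 of Ltf and 90.3 of Csf3r, and the other 6283 cells had 8134, 7.88, 35.5 and 569. As the 24 cells were picked by Ngp, Camp and Ltf, no change of these genes is read from a fit without them. Mmp8 had a log2 fold change of -0.16 with neutrophils added and of -0.67 without control mouse 3. Without cells of very high UMIs that of Ltf was 0.76 and that of Ngp 1.23, and Camp was too low to be tested. With neutrophils added that of Ltf was 2.53. That of Camp was 2.48 with neutrophils added, 3.40 without stress mouse 2 and 8.55 without control mouse 2. The adjusted p of Ltf from edgeR and DESeq2 lay between 0.0948 and 0.9999 over the settings.

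In monocytes none of the 10 genes passed the threshold in the main fit, and S100a8 had lower CPM in the stress mice. It had 374, 192 and 393 CPM in control and 148, 21.3 and 115 in stress mice, and the groups did not overlap, as for 9.29% of all genes in this direction. The log2 fold change was -1.70 (SE 0.62, adjusted p = 0.350 by edgeR), which did not pass the threshold. The labels do not pair the mice by replicate number. With that number as a block, the log2 fold change of S100a8 was -2.01 (adjusted p = 0.0378 by edgeR). The block called 205 of the 12251 genes, against 15 without it. Over the other settings the adjusted p lay between 0.0430 and 0.813, and the direction was the same in all of them. S100a9 went from 181, 221 and 72.9 to 153, 16.9 and 151 CPM (log2 fold change -0.49, SE 0.71, adjusted p = 0.802). Mmp8 had 168, 25.1 and 214 CPM in control and 74.2, 20.6 and 27.1 in stress mice (log2 fold change -1.74, SE 0.75, adjusted p = 0.416), and the groups overlapped. Of the 10 genes, 8 were abundant enough to be tested, 2 of them (S100a8 and Mmp8) had an unadjusted p under 0.05, as 12.0% of all genes did, and 0 passed the adjusted threshold, as 0.122% of all 12251 genes did. DESeq2 called 168 genes in monocytes, again none of the 10.

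The monocyte clusters differed in these transcripts. Cluster 12, led by Plac8 and Ly6c2, had 340 CPM of S100a8 and 88.0 of Mmp8, cluster 13, led by Spp1 and Arg1, had 109 and 102, and cluster 11, led by H2-Eb1 and C1qa, had 74.6 and 9.13. In cluster 12 S100a8 had 2375, 293 and 1017 CPM in control and 695, 32.3 and 224 in stress mice. Fitted alone, the clusters gave log2 fold changes of S100a8 of -1.84 (cluster 11), -1.92 (cluster 12) and -0.79 (cluster 13), with adjusted p = 0.439, 0.408 and 0.813 from edgeR. The share of cluster 12 among monocytes was 16.9%, 25.2% and 30.2% for controls against 20.3%, 46.4% and 30.3% for stressed animals (exact permutation test, p = 0.4). A few cells weighed on the sums, since 1 cell held 737 of the 1556 S100a8 UMIs of control mouse 2. Without the monocytes that had a UMI of Retnlg, Ngp, Camp, Ltf or Stfa2l1 (284 of 6260), the log2 fold change of S100a8 was -1.77 (adjusted p = 0.520) and that of S100a9 was 0.0011.

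**Figure D5:**
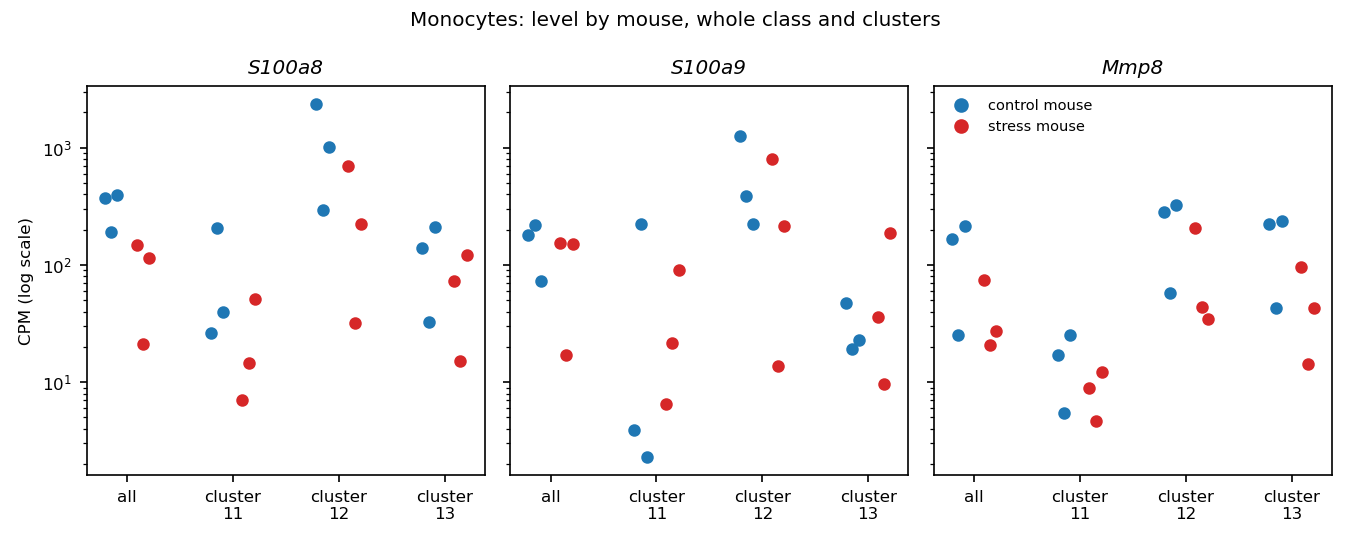
Level (CPM, log scale) of S100a8, S100a9 and Mmp8 in monocytes of each mouse, for the whole class and for clusters 11, 12 and 13; blue points are control mice and red points stress mice. S100a8 of the whole class does not overlap between the groups (192 to 393 against 21.3 to 148), as for 9.29% of all genes in this direction. S100a9 and Mmp8 overlap.

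In M-MDSCs 7 of the 10 genes could be tested, and 0 passed, as 0.561% of 9443 genes did. At an unadjusted p under 0.05 were 2 of the 7, against 9.56% of all genes. Mmp8 had 7.74, 8.16 and 26.7 CPM in control and 4.55, 1.42 and 6.24 in stress mice (log2 fold change -1.97, SE 0.61, adjusted p = 0.288), from 2 to 67 UMIs per mouse, and without control mouse 3 it was -0.94 (adjusted p = 0.854 by edgeR). The groups did not overlap, as for 7.78% of all genes in this direction. S100a9 had 462, 719 and 457 against 559, 686 and 2477 CPM (log2 fold change 1.20, SE 0.45, adjusted p = 0.410), and without stress mouse 3 its log2 fold change was 0.17. DESeq2 called 82 genes in this class and none of the 10. It gave no adjusted p for Mmp8 and Mmp9, so it could not call these genes. With no filter on low counts S100a8, S100a9, Mmp8 and G0s2 were among 321 genes called, of 19439 tested. With the replicate block G0s2 was among 124 (log2 fold change 1.20, adjusted p = 0.0106 by edgeR).

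The difference of the stress effect between inflammatory myeloid cells and monocytes was tested in a joint fit with mouse as a block, in which 1 of 12060 genes passed (0.00829%). That gene was Camp, with an effect larger in inflammatory myeloid cells by 8.58 on the log2 scale (SE 0.69, adjusted p = 2.98e-05 by edgeR). Camp and Ngp were too low in monocytes to be tested in that class alone. In inflammatory myeloid cells 1 cell held 258 of the 440 Camp UMIs of stress mouse 2, and 1 cell 267 of the 387 of stress mouse 3. In monocytes Camp had 0.399, 57.3 and 0.247 CPM in control and 0.275, 2.10 and 0.912 in stress mice, and 446 of the 465 UMIs of control mouse 2 came from 1 cell. Without control mouse 2 the value was 6.77 (adjusted p = 0.256), and without the mouse block 8.86 (adjusted p = 0.9999). Ngp (4.83, SE 0.83, adjusted p = 0.133) and S100a8 (2.32, SE 0.83, adjusted p = 1) did not pass, and were 2.17 without control mouse 2 and 1.39 without stress mouse 2, respectively.

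The remaining genes of the pathway gave no call between the groups. The lists held 5 genes of the primary granule stage, 12 further granule genes, 19 mature neutrophil genes, 12 other S100 genes, 6 receptors and inhibitors, and 17 genes of the G-CSF axis and of granulopoiesis. In inflammatory myeloid cells 1, 11, 19, 7, 5 and 12 of them were tested and 0 passed in either direction, while 1, 2, 0, 0, 1 and 1 had an unadjusted p under 0.05, against 3.96% of all genes. In monocytes 4, 10, 19, 7, 5 and 14, and in M-MDSCs 0, 9, 19, 7, 3 and 12 were tested, and 0 passed, against 0.122% and 0.561% of all genes. An unadjusted p under 0.05 was found for 2, 1, 3, 1, 2 and 3 in monocytes, against 12.0% of all genes, and for 0, 1, 3, 4, 0 and 3 in M-MDSCs, against 9.56%. The lowest adjusted p-values from edgeR were 0.425 for Cd36 in inflammatory myeloid cells, 0.180 for Ptgs2, the inducible cyclooxygenase, in monocytes, and 0.135 for Trem1, an activating receptor of neutrophils, in M-MDSCs. Of the receptors of S100a8 and S100a9, Tlr4 had 354 CPM in inflammatory myeloid cells, 174 in neutrophils and 111 in monocytes, and Ager had 0.0764, 0 and 0.464.

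The genes whose levels ran most alike were taken over 57 sums of a class in a mouse, from 7647 genes (Pearson's r of log2(CPM + 1), a description, as sums of a mouse share a library). S100a8 was most like S100a9 (r = 0.980), Retnlg (0.959), Slfn4 (0.953), Cxcr2 (0.952) and Wfdc21 (0.951). Ngp was most like Camp (0.971), Ltf (0.971), Ly6g (0.961), Abca13 (0.953) and 9830107B12Rik (0.944). Csf3r was nearest to Arg2 (0.963), Clec4d (0.960), Hcar2 (0.957), Clec4e (0.956) and C5ar1 (0.954), none of them a granule gene. G0s2 was nearest to S100a9 (0.944), Il36g (0.937), Cxcr2 (0.933), S100a8 (0.931) and Slfn4 (0.927).

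Inflammatory myeloid cells, which held 57.9% of all S100a9 and 82.2% of all G0s2 UMIs, made up 5.03%, 11.2% and 18.5% of the cells of control mice and 4.66%, 4.57% and 18.8% of those of stress mice. The means were 11.6% ± 6.72 and 9.33% ± 8.17 (SD, n = 3 each; exact permutation test, two-sided, p = 0.6), and the groups overlapped. With tumor cells left out of the total, the means were 26.2% ± 12.1 and 15.6% ± 10.5, a difference of -10.6 percentage points (p = 0.4, exact permutation test), and the groups overlapped. The smallest p that 3 against 3 mice allow is 0.1, so this design could not reach 0.05.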

How the data were processed

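Tumor tissue of 3 control and 3 stress mice was profiled by 10x Genomics single-cell RNA sequencing. The authors deposited UMI counts as whole numbers in a matrix per mouse (mm10), without normalization, together with a table of each cell's mouse, cluster and cell type, which was used as given. The matrix headers give the Cell Ranger version. The gene annotation used for counting is not given in the sources used here. The matrices held 61374 barcodes, of which 58794 were annotated. Totals per mouse were 149558935 to 187728350 UMIs, with 7166 to 20478 at the median per cell. The authors had removed doublets with Scrublet before annotation. No caller was run again here, and an alternative left out cells with over 3 times the median UMIs of their class and mouse.

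Counts were summed per mouse and class, and the sums went into edgeR (version 4.0.16, under R version 4.3.3; filterByExpr, TMM, quasi-likelihood test, Benjamini-Hochberg adjustment over all genes tested, threshold 0.05). Classes with fewer than 10 cells in a mouse were not tested. Alternatives were DESeq2 1.42.0, RLE normalization, no filter on low counts, the replicate number as a block, and leaving out each mouse. Single values were compared by exact permutation. Cells were thinned to 1000 UMIs at random with a fixed seed, and to 500 as an alternative. Scripts ran in Python 3.11.15 (numpy 2.4.6, pandas 2.3.3, scipy 1.17.1, matplotlib 3.10.9) and were tested on simulated data. The labels give same-numbered mice no shared origin. Deviations of same-numbered mice correlated at 0.476, 0.422 and 0.146 in monocytes. In inflammatory myeloid cells the correlations were 0.665, 0.0965 and 0.482, and in M-MDSCs 0.170, 0.0905 and 0.0195. These values come from the tested data and do not establish pairs. The main fits of each class therefore left the numbers out, and the replicate block is an alternative only.

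The genes, lists and tests were chosen with earlier results of these data known. Named genes were the 10 members in each class, listed pathway genes past the threshold (none), and the 5 genes most alike to S100a8, Ngp, Csf3r and G0s2 among genes of at least 50 CPM in a sum. Other genes were named after their values were seen. Fits by monocyte cluster, without monocytes carrying neutrophil UMIs and without granule-rich cells were added after the data were seen.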

Additional observations from a re-analysis of the deposited data

Results flagged for a closer look

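The stress effect on Camp, the cathelicidin peptide of secondary granules, differed between inflammatory myeloid cells and monocytes by 8.58 on the log2 scale (SE 0.69, adjusted p = 2.98e-05 from edgeR's interaction term). It was singled out because it is a difference of the same contrast between 2 cell classes. Camp was too low in monocytes to be tested in that class alone. In inflammatory myeloid cells 1 cell held 258 of the 440 Camp UMIs of stress mouse 2, and 1 cell 267 of the 387 of stress mouse 3. Camp was at 1, 37 and 1 UMIs in inflammatory myeloid cells of control mice and at 4, 440 and 387 in stress mice, and 446 of the 500 Camp UMIs of all monocytes came from 1 cell of control mouse 2. Without that mouse the difference was 6.77 (adjusted p = 0.256), and without the mouse block 8.86 (adjusted p = 0.9999).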

How the results depend on the processing

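Depth limits the low genes, since Camp had 1 UMI in inflammatory myeloid cells of control mice 1 and 3, and 3 mice per group limit every comparison. In inflammatory myeloid cells 0 genes were called, and 80 were called with no filter on low counts, 5 by DESeq2, 9 with the replicate block and 8 without cells of very high UMIs. Camp passed with the block (5.33, adjusted p = 0.0118) and, like Ngp, with no filter (4.82 and 2.62). Monocytes gave 15 calls, against 214 with no filter, 168 by DESeq2, 205 with the replicate block, 9 in cluster 13 alone, and 3 to 64 when a mouse was left out (64 without control mouse 2 and 3 to 7 without each other mouse). M-MDSCs gave 53, against 321 with no filter, 82 by DESeq2, 124 with the block (G0s2 among them, 1.20, adjusted p = 0.0106), and 25 to 90 when a mouse was left out (90 without control mouse 2, 32 without control mouse 1 and 25 without control mouse 3). With no filter S100a8, S100a9, Mmp8 and G0s2 passed in M-MDSCs, and Ngp and S100a8 in the joint fit. The joint fit gave 1 call, 12 with no filter, 0 without the mouse block, and 1 to 4 when a mouse was left out (4 without control mouse 2; Ngp passed without control mouse 1). The cause of these shifts was not tested.

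Some directions turned, none of them of a value past the threshold. In inflammatory myeloid cells S100a8 was -0.11 without cells of very high UMIs, Retnlg 0.080 with neutrophils added, and Mmp9 0.036 with the replicate block, 0.17 with neutrophils added and 0.068 without granule-rich cells. When a mouse was left out, S100a8 ranged from -0.18 to 0.69, Retnlg from -1.13 to 0.14, Mmp9 from -0.43 to 0.27, Csf3r from -0.00365 to 0.93 and G0s2 from -0.058 to 1.13. In monocytes S100a9 (-0.49) was 0.00109 without cells with neutrophil UMIs and 1.55 in cluster 13, and Csf3r -0.034 in cluster 11 and -0.084 in cluster 12. With a mouse left out S100a9 ranged from -0.88 to 0.030, Mmp9 from -1.44 to 0.19 and G0s2 from -0.061 to 1.21. In M-MDSCs Retnlg was -0.27 with the block, and with a mouse left out S100a8 (0.78) ranged from -0.76 (without stress mouse 3) to 1.19, Retnlg from -1.34 to 0.57 and Mmp9 from -0.20 to 0.33. In the joint fit leaving out a mouse gave Mmp8 from -0.080 to 0.95, Mmp9 from -0.37 to 1.33 and Csf3r from -0.15 to 0.64. The difference in the share of inflammatory myeloid cells (-2.23 percentage points) ranged from -6.95 to 1.22 when a mouse was left out, and was above 0 without control mouse 3, stress mouse 1 or stress mouse 2. All other values of the 10 genes kept their direction under the settings tried, and S100a8 in monocytes was negative in every setting. Beside Camp, G0s2 and S100a8 in monocytes (-2.01, adjusted p = 0.0378), the replicate block changed no call of the 10 genes.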
